A study of Homo sapiens and Mus musculus with 56 samples.

Results

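MOLM-13 cells treated for 4 days with EPZ004777 and MI-2-2 together were compared with MOLM-13 cells given DMSO, the solvent control, across all genes measured. The treatment in the sample titles chose the arrays, 3 for the combination and 3 for DMSO, which are 6 of the 56 arrays of the series. MOLM-13 was established from a human monocytic acute myeloid leukaemia, and its KMT2A gene is fused to MLLT3. EPZ004777 inhibits the histone methyltransferase DOT1L, and MI-2-2 (also spelled MI2-2 in the labels) inhibits the binding of menin to KMT2A. In these cells each compound was also given alone at 3 µM for 4 days, on 3 arrays each, and the combination was read as 3 µM of each. The cells grew in RPMI with serum, and the labels call the replicates biological. Mouse leukaemic cells transformed with MLL-AF9, the same fusion in its older name, received the same doses for 4 days, in medium with interleukin-6, interleukin-3 and stem cell factor, and their 3 combination and 3 DMSO arrays served as an independent comparison. Each line is 1 cell model, so the values describe MOLM-13 cultures rather than leukaemias in general. The remaining arrays, of RS4;11, SEM and REH, entered only 1 alternative fit, of all 44 human arrays.

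KMT2A is a histone methyltransferase of blood progenitors. In KMT2A-rearranged leukaemia its amino-terminal part, which binds menin, is fused to a partner such as MLLT3 that recruits DOT1L and the elongation machinery. The fusion protein keeps genes of the HOXA and MEIS1 programme active, with DOT1L methylating histone H3 along their bodies, and the cells stay at an immature myeloid stage. Compounds against DOT1L or menin are known for lowering this programme and for letting such cells take on features of monocytes and granulocytes.

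The combination changed the expression of about as many genes upward as downward, and its largest effects were rises. Values are log2 signals per probe set, so a change of 1 is a 2-fold change, and each change below is the combination minus DMSO ± its standard error (n = 3 arrays per group). A call needed an adjusted p under 0.05 (Benjamini-Hochberg) in limma, fitted on the 12 MOLM-13 arrays together. The test passed 6947 of 14209 genes (48.9%), with 3325 higher (23.4%) and 3622 lower (25.5%) in the combination, and the counts of each gene group are read against these shares. The combination and DMSO arrays did not overlap for 6862 of the called genes, which a call from 3 arrays per group makes likely in advance. A change of at least 2-fold was reached by 576 genes upward (4.05%) and 452 downward (3.18%). At 4-fold the numbers were 163 and 75, and at 8-fold 52 and 32. The median change of all genes was 0.003, and the median absolute change of the called genes was 0.452. The mark † follows a gene read on a probe set that may bind other transcripts as well. A list member counts as measured where its probe set lay above percentile 40 on at least 2 of the 12 arrays. A gene bright in 1 group alone is thus included. If that group is the combination, the gene can hardly count as a fall, and if it is DMSO, hardly as a rise.

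**Figure D1:**
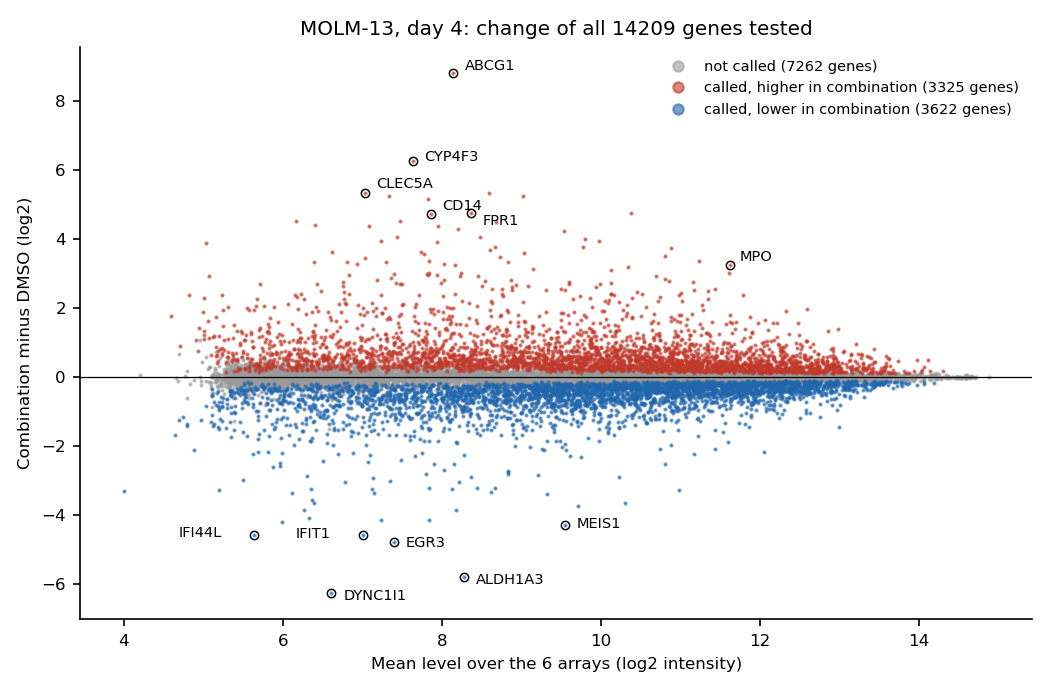
Each point is 1 of 14209 genes in MOLM-13, with the mean log2 signal of the 6 arrays on the x axis and the combination minus DMSO log2 change on the y axis; genes called up are red, genes called down blue and the others grey. ABCG1† stands apart at the top with a change of 8.82, and DYNC1I1† is lowest at -6.27.

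Technical values of the arrays were close. The Pearson correlation between arrays of 1 group was at least 0.9976 for the combination and at least 0.996 for DMSO, and no combination array reached more than 0.9682 with a DMSO array. The 3′ minus 5′ signal of actin, a sign of RNA quality, was 0.957 to 0.97 in the combination and 1 to 1.14 in DMSO, and that of GAPDH 0.216 to 0.234 and 0.21 to 0.237. Whether the small actin gap has a part in the changes was not tested, and with it as a covariate 6120 genes were called, 3123 up and 2997 down. The MOLM-13 arrays had medians of 6.18 to 6.25 and the 32 arrays of the other human lines 5.54 to 5.66, so the 2 sets appear to have been normalized apart. Percentile 40 of a MOLM-13 array lay between 5.48 and 5.56. A signal below it is called dim here; the files give no detection call, and a change that ends in that range depends on this floor.

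The known targets of KMT2A fusion proteins fell as a group, led by MEIS1. Of 30 genes listed, 19 were measured, of which 13 fell, 1 rose and 5 were not called, with a median change of -0.48 (0.003 for all genes). EYA1 and PROM1 were dim, and 9 genes, HOXA9 among them, were not analysed here. MEIS1, a homeobox cofactor of HOXA9, read 7.40, 7.36 and 7.46 on the combination arrays and 11.72, 11.66 and 11.71 on the DMSO arrays. The arrays of each group nearly coincided, and the change was -4.29 ± 0.06 (adjusted p = 2.58e-11), a 19.6-fold lower signal. PBX3, the partner of MEIS1 and HOX proteins on DNA, read 9.78, 9.61 and 9.69 with the combination against 11.80, 11.72 and 11.85 with DMSO, a change of -2.10 ± 0.06 (adjusted p = 5.24e-10).

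The growth and renewal genes of the same list moved less. FLT3, a cytokine receptor of progenitors, read 11.03, 11.11 and 11.09 with the combination and 12.45, 12.41 and 12.36 with DMSO (-1.33 ± 0.07, adjusted p = 8.66e-08). MEF2C†, a transcription factor of leukaemic stem cells, read 12.10, 12.23 and 12.17 against 13.31, 13.31 and 13.40 (-1.18 ± 0.06), and the RNA-binding protein gene IGF2BP2 11.71, 11.69 and 11.71 against 12.74, 12.75 and 12.74 (-1.04 ± 0.04). The groups did not overlap in either gene, yet both stayed bright in the treated cells. CDK6, a kinase of the G1 phase, read 12.56, 12.48 and 12.45 with the combination and 13.41, 13.45 and 13.50 with DMSO (-0.96 ± 0.06). SENP6† (-1.19), a SUMO protease gene, fell by as much as MEF2C†, and smaller falls were seen in JMJD1C (-0.82), BCL2 (-0.61), ZEB2† (-0.42) and MYB (-0.20), and in RUNX2 (-0.48), whose call ended in a fit of all 44 human arrays (adjusted p = 0.0635). CCNA1, a cyclin of germ cells and myeloid cells, was the member that rose, with 13.53, 13.47 and 13.56 in the combination and 12.30, 12.11 and 12.17 in DMSO (+1.32 ± 0.10). CDK9 (-0.45 ± 0.36, adjusted p = 0.346), LMO2† (+0.09), TCF4 (-0.07), GFI1 (-0.10) and HMGA2 (+0.29) were not called. CDK9 was called as lower with the mean of all probe sets (adjusted p = 0.0477) and with only the combination and DMSO arrays fitted (adjusted p = 0.00996). LMO2† was called as higher with the mean of all probe sets (adjusted p = 0.00911). HMGA2 was called as higher with the replicate number as a block (adjusted p = 0.0319) and without combination array 3 or DMSO array 3 (adjusted p = 0.0322 and 0.039).

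**Figure D2:**
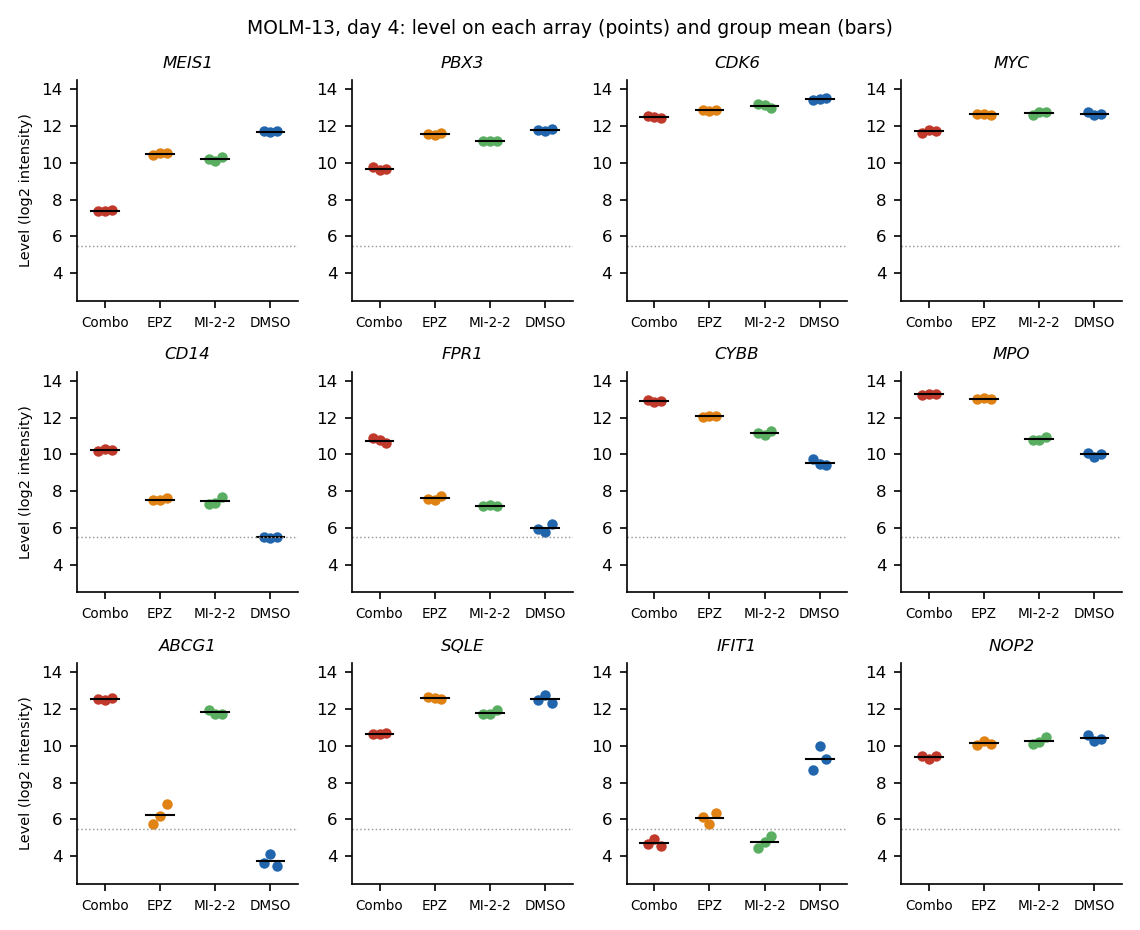
Log2 signal on each MOLM-13 array for 12 genes named in the text, with the combination (Combo) left of EPZ004777 (EPZ), MI-2-2 and DMSO; points are arrays, bars are means of 3 and the dotted line is the mean of percentile 40 over the arrays. MEIS1 stands at 7.36 to 7.46 on the combination arrays and 11.66 to 11.72 on the DMSO arrays, and CD14 at 10.19 to 10.27 against 5.47 to 5.51.

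Stem and progenitor regulators outside that list had 4 up and 4 down of 14, shares near those of all genes. IKZF2 (-1.18 ± 0.12), a zinc finger factor of leukaemic stem cells, and GATA2 (-0.91), a progenitor factor, were among those that fell. TCF7L2 (+0.94), HHEX (+0.70), SOX4 (+0.39) and FLI1 (+0.29) rose. Among 16 surface antigens 10 rose and 3 fell. The lectin receptor CLEC12A† (+3.76), the macrophage colony-stimulating factor receptor CSF1R (+1.74), CD93† (+1.23), the granulocyte colony-stimulating factor receptor CSF3R† (+1.18) and HAVCR2 (+1.00) were higher by 2-fold or more. The ADP-ribosyl cyclase gene CD38† (-0.87) and the interleukin-3 receptor gene IL3RA (-0.54) were lower.

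Receptors by which monocytes and neutrophils sense microbes rose in most cases. Of 24 listed Fc, complement, formyl peptide and Toll-like receptor genes and their partners, 21 were measured, of which 18 rose and 1 fell, with a median change of 1.23. CD14, the co-receptor for lipopolysaccharide, read 10.19, 10.27 and 10.23 on the combination arrays and 5.48, 5.47 and 5.51 on the DMSO arrays, where it was at the dim floor. Its change was +4.74 ± 0.09 (adjusted p = 5.72e-11), a 26.7-fold higher signal. The formyl peptide receptor genes FPR1† and FPR2 read 10.87, 10.76 and 10.60 and 8.62, 8.74 and 8.47 with the combination, against 5.96, 5.79 and 6.23 and 4.37, 3.91 and 4.30 with DMSO. Both rose by more than 4 on the log2 scale, and FPR2 was dim in DMSO.

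Complement and antibody receptors followed the same direction. CR1, the receptor for the complement fragment C3b, read 9.45, 9.33 and 9.61 with the combination and 5.82, 5.47 and 4.91 with DMSO (+4.06 ± 0.26). FCAR, the receptor for immunoglobulin A, read 9.78, 9.84 and 9.76 against 6.74, 6.61 and 6.28 (+3.25 ± 0.12), and TLR8, a sensor of single-stranded RNA, 9.46, 9.53 and 9.56 against 6.39, 6.23 and 5.85 (+3.36 ± 0.15). None of these arrays overlapped between groups. The lipoprotein and lipopolysaccharide sensors TLR2 (+2.02) and TLR4† (+2.43), the common Fc chain gene FCER1G (+2.27), FCGR2B† (+1.35), C5AR1 (+1.23) and FCGR1A (+0.83) were higher too. LY96, which encodes the partner of TLR4, was lower (-0.90 ± 0.12), and C3AR1 (+0.33) and TLR7 (+0.47) were not called (adjusted p = 0.0852 and 0.0847; 0.0323 and 0.0487 with only the combination and DMSO arrays fitted).

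Markers of monocyte and macrophage differentiation rose in 20 of 23 measured members (30 listed, 4 of them dim) and fell in 2. Their median change was 1.16, and 13 rose at least 2-fold. Members dim in DMSO, such as FCN1†, could hardly count as falls. CLEC7A†, the receptor for fungal beta-glucan also called dectin-1, read 11.96, 12.16 and 11.74 with the combination and 8.02, 7.75 and 8.25 with DMSO (+3.95 ± 0.17). In a fit of all 44 human arrays, which takes the probe set brightest over all lines, its change was 0.30 (adjusted p = 0.0731), so this call depends on the probe set. The scavenger receptor gene CD36† (+2.76), the ficolin gene FCN1† (+2.69), TREM1 (+1.93), the complement receptor gene VSIG4 (+1.91), the costimulatory ligand gene CD86† (+1.68) and the macrophage pore gene MPEG1 (+1.17) rose by 2-fold or more, and the integrin chains ITGAM† (+0.97) and ITGAX (+0.94) by just under 2-fold. SIGLEC1†, the sialic acid receptor CD169, went the other way, with 5.61, 5.52 and 5.62 in the combination and 7.609, 8.002 and 7.826 in DMSO (-2.23 ± 0.11). The other fall, that of the proteoglycan gene VCAN† (-0.60), was not called without combination array 1 or 3 or DMSO array 3 (adjusted p = 0.0547, 0.0672 and 0.0637), and TREM2 was not called (-0.01). In bulk RNA, a larger share of cells with a transcript and more transcript per cell cannot be told apart.

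Enzymes and proteins of granules and of the oxidative burst were higher. MPO, the myeloperoxidase of azurophil granules, read 13.20, 13.27 and 13.29 with the combination and 10.08, 9.88 and 10.04 with DMSO (+3.26 ± 0.07, adjusted p = 1.19e-10), a 9.56-fold rise. CAMP, the cathelicidin of specific granules, read 9.72, 9.72 and 9.65 against 7.02, 6.35 and 6.94 (+2.93 ± 0.15). Among 14 measured granule genes (22 listed) 9 rose and 1 fell. Other azurophil genes moved little, with AZU1† (+0.62), CTSG (+0.62) and ELANE (+0.56), and the gelatinase gene MMP9† (+1.80) more. The fall was that of the proteoglycan gene SRGN† (-0.17), not called with the mean of all probe sets (adjusted p = 0.11). LTF† was not called (-0.32), and LCN2, DEFA4, MMP8, OLFM4 and CRISP3 were dim. All 7 measured genes of the phagocyte NADPH oxidase rose, above all CYBB†, its catalytic chain, with 12.95, 12.86 and 12.91 in the combination and 9.75, 9.47 and 9.44 in DMSO (+3.35 ± 0.08). Of the 6 others the adaptor gene VAV1† (+0.87) rose most. The count was 4 of 7 without combination array 2 or 3, and also when the 44 human arrays were fitted together.

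The calcium-binding S100 proteins and the annexins were higher in 14 of 14 measured genes (S100Z was dim), with a median change of 0.91. S100A8† read 12.79, 12.78 and 12.69 and S100A9 10.37, 10.58 and 10.37 with the combination, against 9.18, 9.12 and 8.75 and 6.88, 6.61 and 6.79 with DMSO. Their changes were +3.73 ± 0.10 and +3.68 ± 0.09; the 2 proteins form calprotectin, an abundant complex of neutrophils and monocytes. ANXA1, a mediator of glucocorticoid action, read 13.10, 13.11 and 13.15 against 10.28, 10.10 and 9.91 (+3.02 ± 0.11), and the smallest rise was that of ANXA4 (+0.49). Lysosomal genes rose in 14 of 25 and fell in 1, with GRN† (+0.98), CTSD (+0.76) and HEXA† (+0.76) in front and CTSH† (-0.38) lower.

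Transcription factors of the myeloid lineage rose in 17 of 27 members and fell in 2, with a median change of 0.41. JUN† read 10.96, 10.88 and 10.89 with the combination and 8.63, 8.56 and 8.47 with DMSO (+2.35 ± 0.09), and BCL6, a repressor, 11.00, 11.02 and 10.90 against 9.08, 9.01 and 9.06 (+1.93 ± 0.09). The late granulocytic factor CEBPE (+1.38), CEBPD (+1.56), FOS (+1.36), TFEC (+1.21), MITF (+0.98), KLF4† (+0.92) and IRF5 (+0.57) also rose. SPI1, which encodes the master regulator PU.1, read 10.73, 10.86 and 10.68 with the combination and 10.16, 10.21 and 10.35 with DMSO, a small rise of +0.51 ± 0.08 (adjusted p = 0.000209). CEBPA, needed for the granulocyte-monocyte stage, did not separate, with 12.73, 12.79 and 12.78 against 12.76, 12.60 and 12.83 (+0.04, adjusted p = 0.744). CEBPB (+0.09) was not called either. IRF8 (-0.61), a monocyte and dendritic cell factor, and EGR1† (-0.96) fell.

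**Figure D3:**
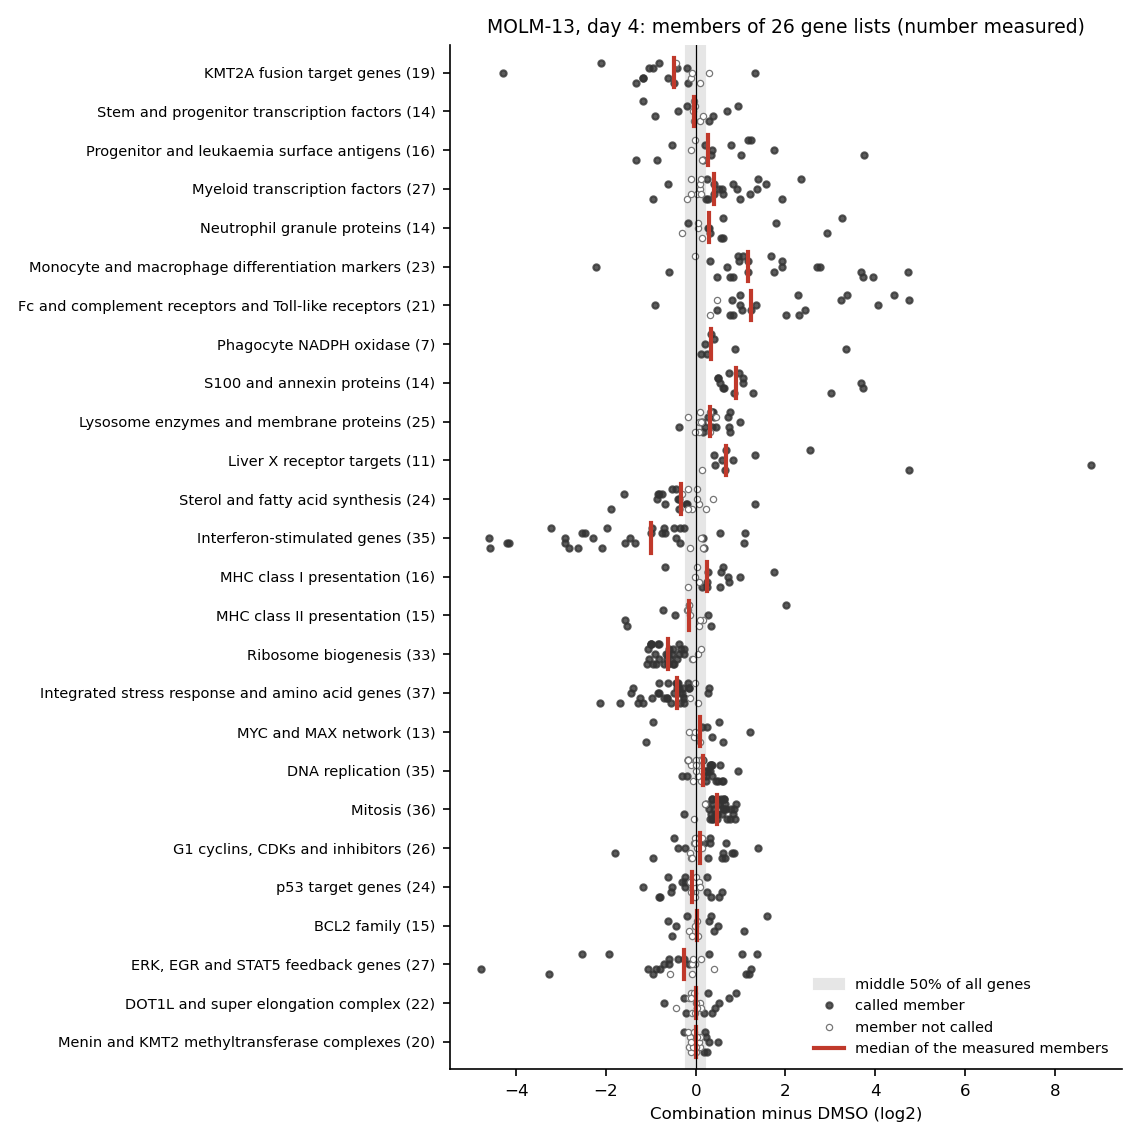
For each gene list (number measured in brackets), points are the combination minus DMSO log2 changes of its measured members in MOLM-13, filled where called, the red bar is their median, and the grey band spans the central part of all genes. Mitosis (33 of 36 up) lies right of the band, and ribosome biogenesis (29 of 33 down) and interferon-stimulated genes (27 of 35 down) lie left of it.

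The cells kept the label of the line. All 13 markers of myeloid identity were above percentile 40 on every combination array and 12 of 13 on every DMSO array, and their mean level was 12.11 to 12.14 with the combination and 10.7 to 10.8 with DMSO. Markers of other cells had mixed levels, given as those above percentile 40 on every array of a group and as their mean level. For the B lineage these were 9 of 19 genes in either group, with means of 5.21 to 5.29 with the combination and 5.4 to 5.44 with DMSO. The B lineage genes IGLL1 (-1.13), BLNK† (-1.24) and FCRLA (-1.04) fell at least 2-fold. T and NK markers (5 of 19 with the combination, 4 with DMSO) averaged 5.31 to 5.46 and 5.22 to 5.3. Of their 6 measured members 2 rose and 2 fell. CD3D read 11.15, 11.34 and 11.12 with the combination and 9.20, 9.56 and 9.55 with DMSO, and the granule gene NKG7 12.18, 12.26 and 12.05 against 11.14, 11.30 and 11.16, so both were bright and higher with the combination. PRF1 (5.679 to 5.704 against 6.243 to 6.895) and IL2RB (4.669 to 5.162 against 5.442 to 5.712) were lower with it. Erythroid markers (7 of 14 with the combination, 8 with DMSO) averaged 6.94 to 7.02 and 6.82 to 6.9, and megakaryocyte markers (8 of 14 with the combination, 6 with DMSO) 6.1 to 6.22 and 5.97 to 5.99. Dendritic cell markers (9 of 17 in either group) averaged 5.65 to 5.84 and 5.86 to 6.01. Of their 10 measured members 4 fell, IRF7 (-0.76) among them, and 1 rose, LAMP3 (+1.08), which was dim in DMSO. Mast cell, basophil and eosinophil markers (10 of 14 in either group) averaged 8.18 to 8.25 and 8.31 to 8.56. The tryptase genes TPSAB1† (-1.39) and TPSB2† (-1.52) were lower, and the eosinophil protein genes CLC (+1.04) and PRG3 (+1.03) higher. The part of such cells in the results was not tested.

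The largest rise of any gene was that of a cholesterol exporter, ABCG1†. Liver X receptors are sterol sensors that switch on exporters and phospholipid enzymes, and 10 of their 11 measured target genes rose and none fell, with a median change of 0.68. ABCG1†, which loads cholesterol onto lipoprotein particles, read 12.55, 12.51 and 12.59 on the combination arrays and 3.61, 4.12 and 3.47 on the DMSO arrays. The change was +8.82 ± 0.24 (adjusted p = 6.05e-10), but the DMSO values lay below the dim floor, so its size is set by the background. The partner exporter ABCA1† read 12.73, 12.81 and 12.73 with the combination and 8.14, 7.77 and 8.14 with DMSO (+4.74 ± 0.12). SMPDL3A, a secreted phosphodiesterase, read 12.69, 12.74 and 12.71 against 10.28, 10.08 and 10.14 (+2.55 ± 0.08). PLTP† (+1.32), the receptor gene NR1H3 (+0.83) itself, LPL† (+0.65), APOC1† (+0.58), MYLIP† (+0.42) and APOE† (+0.40) rose less, and TSPO† was not called (+0.14). The phospholipid enzyme gene LPCAT3 (+0.68) counts among the 10, but fell on the probe set that is brightest over all 44 human arrays (-0.97, adjusted p = 1.32e-07).

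Sterol synthesis went the other way, since 14 of 24 measured genes of sterol and fatty acid synthesis fell, 1 rose and the median change was -0.34. SQLE, the squalene epoxidase, read 10.66, 10.63 and 10.68 with the combination and 12.51, 12.74 and 12.35 with DMSO (-1.88 ± 0.09, adjusted p = 4.54e-08). HMGCS1, which makes the precursor of mevalonate, read 10.71, 10.78 and 10.73 against 12.36, 12.73 and 11.93 (-1.60 ± 0.16), with the DMSO arrays spread widely. Later steps were lower as well, among them LSS (-0.87), MSMO1 (-0.83), DHCR7† (-0.81), SC5D† (-0.76) and NSDHL (-0.68). The member that rose was SREBF1, the regulator of fatty acid synthesis and itself a liver X receptor target, with 10.11, 10.13 and 10.09 in the combination and 8.86, 8.77 and 8.76 in DMSO (+1.31 ± 0.08). The sterol regulator SREBF2 (+0.03) and the fatty acid enzymes FASN† (+0.08) and SCD† (+0.03) were not called.

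Interferon-stimulated genes fell, and of the 42 gene lists theirs had the lowest median change. Of 35 measured, 27 fell, 18 of them at least 2-fold, and 5 rose, with a median change of -1.01. Many of them carry the interferon-stimulated response element, the site of the ISGF3 complex and of interferon regulatory factors. The letters GAAA, any 2 bases and GAAA again, on either strand, stood in 16 of 22 promoters of members that fell (72.7%) and in 17 of 26 promoters of measured members, against 2.82% of the promoters of all tested genes and 3.65% of 27305 promoters. The promoters are RefSeq sequences of GRCh38.p14 around the gene start. A match is a description of the letters and not a binding measurement. Windows of 60 bases around the element are shown for 7 members whose values follow, on the strand of the gene, with the matched letters (merged where matches overlap) in capitals.
ISG15, chr1:1013365-1013424, plus strand: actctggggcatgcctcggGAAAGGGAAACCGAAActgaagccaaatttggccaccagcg
IFI44, chr1:78649746-78649805, plus strand: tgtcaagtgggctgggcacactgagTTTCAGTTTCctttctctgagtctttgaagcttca
IFI44L, chr1:78620350-78620409, plus strand: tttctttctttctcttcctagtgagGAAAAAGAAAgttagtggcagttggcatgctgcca
IFIT1, chr10:89392495-89392554, plus strand: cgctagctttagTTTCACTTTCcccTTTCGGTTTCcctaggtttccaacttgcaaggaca
IFIT5, chr10:89414539-89414598, plus strand: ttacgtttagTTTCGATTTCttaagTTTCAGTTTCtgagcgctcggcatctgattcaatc
MX1, chr21:41420544-41420603, plus strand: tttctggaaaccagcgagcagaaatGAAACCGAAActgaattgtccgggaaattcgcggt
CXCL10, chr4:76023684-76023743, minus strand: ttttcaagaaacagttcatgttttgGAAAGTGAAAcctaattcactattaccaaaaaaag

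IFI44L, an interferon-induced gene with a GTPase-like fold, read 3.35, 3.22 and 3.44 with the combination, all below the dim floor, and 7.46, 8.34 and 8.01 with DMSO. IFIT1, which binds foreign RNA caps, read 4.65, 4.92 and 4.58 against 8.68, 9.97 and 9.27, and the chemokine gene CXCL10 4.46, 3.90 and 3.28 against 7.52, 8.77 and 7.99. Their changes were -4.60 ± 0.18, -4.59 ± 0.29 and -4.21 ± 0.33 (adjusted p = 8.78e-09, 3.16e-07 and 1.78e-06), and all 3 ended at the background. ISG15, a ubiquitin-like protein, kept a bright signal, with 8.24, 8.34 and 8.07 in the combination and 9.59, 10.97 and 10.36 in DMSO (-2.09 ± 0.26). The antiviral GTPase gene MX1 read 7.05, 7.05 and 7.17 against 7.80, 9.21 and 8.67 (-1.47 ± 0.28, adjusted p = 0.00125), and the RNA-binding gene IFIT5† 6.43, 6.62 and 6.87 against 8.58, 9.62 and 9.32 (-2.54 ± 0.32). In each of these genes DMSO array 1 was the lowest of its group, and the groups still did not overlap. IFI44† (-4.16), RSAD2 (-2.82), OASL (-2.90), USP18 (-2.47), OAS2 (-2.62), OAS3 (-1.58) and IRF9 (-0.97), a subunit of ISGF3, fell too. The members that rose were the GTPase gene GBP2 (+1.09) and the nucleotide hydrolase gene SAMHD1† (+1.06), and by less MX2 (+0.53), IFITM2† (+0.19) and TRIM22† (+0.17), whose calls each ended under 1 or more alternatives.

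Antigen presentation did not follow the interferon-stimulated genes. For MHC class I, 11 of 16 members rose and 1 fell. The class I transactivator NLRC5 read 11.79, 11.72 and 11.74 with the combination and 10.12, 9.89 and 10.01 with DMSO (+1.75 ± 0.09), and HLA-F† (+0.99), HLA-E (+0.73), HLA-B† (+0.60), HLA-C† (+0.55), the immunoproteasome gene PSMB9 (+0.73) and the peptide transporter chain TAP1† (+0.55) rose, while its partner chain TAP2 (-0.68) fell. For MHC class II, 3 of 15 rose and 4 fell, near the shares of all genes. HLA-DRA read 8.27, 8.50 and 8.33 with the combination and 10.08, 9.98 and 9.63 with DMSO (-1.53 ± 0.13), and HLA-DRB1† (-1.58) and HLA-DPB1† (-0.74) fell with it. HLA-DQB1† went up, with 9.09, 9.10 and 9.03 against 6.97, 7.09 and 7.11 (+2.02 ± 0.05), and the class II transactivator CIITA was not called (+0.17, adjusted p = 0.466; 0.0428 without combination array 2).

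Genes for building ribosomes fell in most cases, by up to about 2-fold. None of 33 measured members rose in the limma test and 29 fell, with a median change of -0.61. The MYC protein is known for driving such genes from E-boxes. MYC† read 11.62, 11.79 and 11.72 with the combination and 12.75, 12.60 and 12.63 with DMSO (-0.95 ± 0.07, adjusted p = 7.62e-07). Whether its fall has a part in that of the ribosome genes was not tested. The E-box CACGTG, the same on both strands, stood in 13 of 25 promoters of members that fell (52%). Among members not called it stood in 2 of 4 (50%), and among all measured members in 15 of 29. The shares were 9.94% for the promoters of tested genes and 7.43% for all promoters. The 5 windows below, again of 60 bases from RefSeq GRCh38.p14 on the gene's strand, show it in capitals for members with large falls.
NOP2, chr12:6568242-6568301, minus strand: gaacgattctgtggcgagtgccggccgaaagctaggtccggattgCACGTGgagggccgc
BYSL, chr6:41921489-41921548, plus strand: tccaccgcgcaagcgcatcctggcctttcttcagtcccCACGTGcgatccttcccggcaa
UTP20, chr12:101280068-101280127, plus strand: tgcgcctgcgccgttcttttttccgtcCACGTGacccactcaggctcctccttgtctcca
MRTO4, chr1:19251792-19251851, plus strand: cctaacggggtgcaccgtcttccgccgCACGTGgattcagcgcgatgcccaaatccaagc
IPO4, chr14:24188813-24188872, minus strand: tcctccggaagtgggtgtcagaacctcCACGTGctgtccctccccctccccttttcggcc

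IPO4, an importin for ribosomal and histone cargo, read 8.02, 7.99 and 8.15 with the combination and 9.30, 9.03 and 9.12 with DMSO (-1.10 ± 0.12, adjusted p = 2.19e-05). NOP2, a methyltransferase of ribosomal RNA, read 9.45, 9.29 and 9.47 against 10.62, 10.26 and 10.36 (-1.01 ± 0.11), and BYSL, an assembly factor of the small subunit, 8.83, 8.94 and 9.06 against 10.06, 9.67 and 9.99 (-0.96 ± 0.16). UTP20, a scaffold of small-subunit processing, read 7.86, 7.76 and 7.82 against 8.60, 8.79 and 8.56 (-0.84 ± 0.10), and MRTO4†, which acts on the large subunit, 9.33, 9.66 and 9.39 against 10.49, 10.49 and 10.51 (-1.04 ± 0.08). No array of these 5 genes crossed between the groups, and all stayed well above the dim floor. The RNA polymerase I subunits POLR1A (-0.99), POLR1B† (-0.88) and POLR1C (-0.81) and the nucleolar proteins DDX21 (-0.63), NOP58 (-0.61) and NCL† (-0.26) fell, whereas NPM1† (-0.06) and FBL† (+0.06) were not called. In the network of MYC partners, the antagonists MXD3† (+1.20), MXD1 (+0.36) and MXI1 (+0.26) rose, as did MYCL (+0.62), and MAX† was not called (0.00).

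The integrated stress response, by which ATF4 raises amino acid synthesis and transport, was lower in 32 of 37 members and higher in 2, with a median change of -0.43. STC2, a secreted glycoprotein induced by stress, read 8.04, 8.41 and 8.24 with the combination and 10.36, 10.12 and 10.57 with DMSO (-2.12 ± 0.14). DDIT4†, an inhibitor of mTORC1, read 12.19, 12.32 and 12.31 against 13.73, 13.74 and 13.71 (-1.45 ± 0.06), and TRIB3, a pseudokinase, 9.72, 10.07 and 9.97 against 11.05, 11.04 and 11.37 (-1.23 ± 0.11). The transcription factor genes ATF5† (-1.68), ATF3† (-1.41) and DDIT3 (-0.63) and the enzyme genes PYCR1† (-1.29), CTH (-1.17), PSAT1† (-0.42) and ASNS† (-0.36) fell, while the messenger of ATF4 itself was not called (-0.03, adjusted p = 0.66). The serine enzyme gene PHGDH (+0.28) rose, and so did the cystine transporter gene SLC7A11 (+0.31), which was not called with the mean of all probe sets (adjusted p = 0.508). The letters TGATGNAA of the amino acid response element stood in 6 of 26 promoters of members that fell (23.1%) and in 8 of 30 promoters of measured members (26.7%), against 1.95% of those of tested genes. Chaperones of the endoplasmic reticulum did not share the fall, 9 up and 2 down of 23.

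Mitosis genes rose, by less than 2-fold each. Of 36 measured mitosis genes 33 rose and 1 fell, with a median change of 0.48. MKI67†, the proliferation antigen, read 10.36, 10.37 and 10.35 with the combination and 9.35, 9.95 and 9.27 with DMSO (+0.84 ± 0.14), the second DMSO array being the closest to the treated ones. ESPL1 (+0.89), KIF20A (+0.86), UBE2C (+0.70), AURKB (+0.68), TOP2A (+0.64), FOXM1† (+0.56) and PLK1 (+0.48) rose, and BUB3† (-0.27), a checkpoint protein, fell. For DNA replication 20 of 35 rose and 3 fell, from TK1† (+0.94) to MCM6 (-0.30); 12 rose without combination array 2 and 13 without combination array 3. The G1 regulators moved both ways, 11 up and 5 down of 26. CCND1, cyclin D1, read 5.16, 5.34 and 5.38 with the combination, at the dim floor, and 7.08, 7.20 and 7.02 with DMSO (-1.81 ± 0.07). CDK4† (-0.49) and CCND2† (-0.39) fell with CDK6, while E2F8 (+1.39), E2F7 (+0.85), CCNE2 (+0.66), CCND3 (+0.33) and the inhibitor gene CDKN2D (+0.61) rose. CDKN1A†, the inhibitor p21, was not called (-0.12, adjusted p = 0.209).

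Targets of p53 fell more often than they rose, 10 down and 5 up of 24, among them TIGAR (-1.18), SESN2† (-0.81), AEN† (-0.80), TP53I3† (-0.61) and MDM2† (-0.25), with SUSD6 (+0.58) higher. The 5 rises became 3 without combination array 1 or DMSO array 2, and 2 when the 44 human arrays were fitted together. In the BCL2 family 6 of 15 rose and 4 fell. The anti-apoptotic BCL2 read 12.05, 12.01 and 12.02 with the combination and 12.64, 12.59 and 12.68 with DMSO (-0.61 ± 0.04). BCL2A1, another anti-apoptotic member, read 12.37, 12.44 and 12.46 against 10.97, 10.76 and 10.77 (+1.59 ± 0.08), and the pro-apoptotic BMF 10.47, 10.43 and 10.50 against 9.43, 9.33 and 9.45 (+1.07 ± 0.09). Anti-apoptotic members thus changed in both directions. MCL1† was not called (+0.03).

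Feedback genes of growth factor and cytokine signalling moved both ways. Of 27 members 14 fell and 6 rose. SOCS2, an inhibitor induced by STAT5, read 9.26, 9.39 and 9.41 with the combination and 12.58, 12.50 and 12.79 with DMSO (-3.27 ± 0.10, adjusted p = 1.08e-09), and the STAT5 targets OSM (-2.54), SOCS1† (-1.94), CISH† (-0.88), PIM1 (-0.80) and PIM2 (-0.70) fell too. Among genes induced by ERK, EGR3 read 4.08, 4.83 and 6.08 against 9.72, 10.03 and 9.62 (-4.79 ± 0.39), where 1 combination array was above the dim floor and the others below, and EGR1† (-0.96) and FOSL1 (-1.07) fell. The ERK phosphatase gene DUSP6 instead read 12.54, 12.61 and 12.53 with the combination and 11.36, 11.58 and 11.68 with DMSO (+1.02 ± 0.08), and the inhibitor genes SPRY2 (+1.19) and SPRY4† (+1.23) and PHLDA1 (+1.12) rose.

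DOT1L (-0.15 ± 0.10, adjusted p = 0.271) and MEN1† (-0.14 ± 0.15, adjusted p = 0.476) were not called. Of 22 genes of the DOT1L and super elongation complexes 7 rose and 3 fell. The DOT1L partner MLLT10 read 10.45, 10.54 and 10.50 with the combination and 11.25, 11.09 and 11.28 with DMSO (-0.71 ± 0.06), and MLLT3†, the fusion partner in this line, 9.86, 9.88 and 9.86 against 9.19, 9.06 and 9.16 (+0.73 ± 0.08). HEXIM1†, an inhibitor of the elongation kinase P-TEFb, rose (+0.90) and its cyclin subunit CCNT1 fell (-0.27). In the menin and KMT2 complexes 6 of 20 rose and 1 fell. KMT2A read 10.55, 10.50 and 10.52 with the combination and 10.03, 10.01 and 10.03 with DMSO (+0.50 ± 0.04). Whether its probe set, or that of MLLT3†, reads the fusion transcript or the intact gene was not tested. The fall was that of the core subunit gene WDR5 (-0.26), not called with the actin covariate (adjusted p = 0.0851).

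The 20 largest rises also held genes outside the groups above. CYP4F3, an enzyme that inactivates leukotriene B4 in neutrophils, read 10.84, 10.77 and 10.69 with the combination and 4.77, 4.48 and 4.24 with DMSO, all dim (+6.27 ± 0.14). CLEC5A, a myeloid lectin receptor, read 9.64, 9.86 and 9.58 against 4.36, 4.32 and 4.42, and ANKRD22 11.27, 11.27 and 11.22 against 5.74, 6.14 and 5.92. Both changes came to 5.33. The acyltransferase gene GPAT3† (+5.15), the orphan receptor gene GPR82 (+5.26), NAV3† (+5.24), the prolactin receptor gene PRLR (+4.52), the sodium-calcium exchanger gene SLC8A1 (+4.51), the leukocyte protease inhibitor gene SLPI (+4.50), OLIG1 (+4.39), the ubiquitin ligase gene MARCHF1 (+4.37), the kinase gene LRRK2 (+4.28), SERPINB10 (+4.23) and the phosphodiesterase gene PDE4B (+4.06) completed the 20 largest with members already described.

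The 20 largest falls began with DYNC1I1†, an intermediate chain of cytoplasmic dynein, with 3.76, 3.21 and 3.45 in the combination, all dim, and 9.48, 9.80 and 9.97 in DMSO (-6.27 ± 0.17). ALDH1A3, which makes retinoic acid, read 5.39, 5.10 and 5.63 against 11.24, 11.41 and 10.89 (-5.81 ± 0.17). TTC28, further down, read 6.18, 6.21 and 6.37 against 10.02, 10.09 and 10.20 (-3.85 ± 0.10). All 3 went to or near the floor. The growth factor gene PDGFA† read 8.51, 8.24 and 8.68 with the combination and 11.82, 12.59 and 12.02 with DMSO (-3.67 ± 0.23), and the ephrin gene EFNA5† 7.71, 7.97 and 7.82 against 11.51, 11.58 and 11.67 (-3.75 ± 0.11), both still bright after treatment. The epidermal growth factor family gene EREG (-3.59), the prostacyclin synthase gene PTGIS† (-4.09), the G protein regulator gene RGS16† (-3.41), the interleukin-12 receptor gene IL12RB2 (-3.37), the interleukin-7 receptor gene IL7R (-3.34), KLHDC7B (-4.16), the interferon-responsive EPSTI1 (-3.87), SMKR1 (-3.67) and the antisense gene JMJD1C-AS1 (-3.37) also fell. Strand and overlap were not resolved for this last gene, whose host JMJD1C fell too.

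Some genes crossed the dim floor. Dim on all 3 DMSO arrays and above percentile 40 on all 3 combination arrays were 82 called genes, and 85 showed the reverse. With percentile 30 as the floor these numbers were 30 and 26, and with percentile 50 they were 128 and 124. The first set included ABCG1†, CYP4F3, CLEC5A, PRLR, FPR2, OLIG1 and the antitrypsin gene SERPINA1† (+3.62).

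MEIS1 was among the 5 largest falls of the combination against either compound alone. Against EPZ004777 alone, 2042 genes were higher (14.4%) and 2648 lower (18.6%), and against MI-2-2 alone 2522 were higher (17.7%) and 3054 lower (21.5%). The largest differences to EPZ004777 alone were rises of ABCG1† (+6.29), GRAMD1C (+3.33), a sterol transfer protein gene, GPR82 (+3.33), FPR1† (+3.13) and the transcription factor gene CREB5 (+2.85), and falls of MEIS1 (-3.10), DYNC1I1† (-3.04), the lipase gene LIPG (-2.97), JMJD1C-AS1 (-2.73) and ALDH1A3 (-2.70). To MI-2-2 alone they were rises of CYP4F3 (+5.16), SLPI (+4.09), FPR2 (+3.87), FPR1† (+3.53) and SLC8A1 (+3.51), and falls of EGR3 (-5.79), DYNC1I1† (-3.40), ALDOC (-2.88), a glycolytic aldolase gene, MEIS1 (-2.79) and ANGPT1 (-2.52), a ligand of the TEK receptor.

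The single compounds are given beside the combination, all against the same DMSO arrays, so their changes are not independent. EPZ004777 alone raised 2165 genes (15.2%) and lowered 1776 (12.5%), and MI-2-2 alone raised 1443 (10.2%) and lowered 1186 (8.35%). The median change of the fusion targets was -0.48 with the combination, -0.30 with EPZ004777 and -0.24 with MI-2-2. For monocyte markers the medians were 1.16, 0.81 and 0.22, in the same order, and for liver X receptor targets 0.68, 0.17 and 0.60. For mitosis they were 0.48, 0.42 and -0.15, and for the integrated stress response -0.43, -0.38 and 0.00. ABCG1† averaged 12.55 with the combination, 6.26 with EPZ004777, 11.82 with MI-2-2 and 3.73 with DMSO. MPO averaged 13.26, 13.02, 10.83 and 10.00 in that order. The combination exceeded MI-2-2 alone by +0.73 for ABCG1† (adjusted p = 0.0316) and EPZ004777 alone by +0.24 for MPO (adjusted p = 0.0183).

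**Figure D4:**
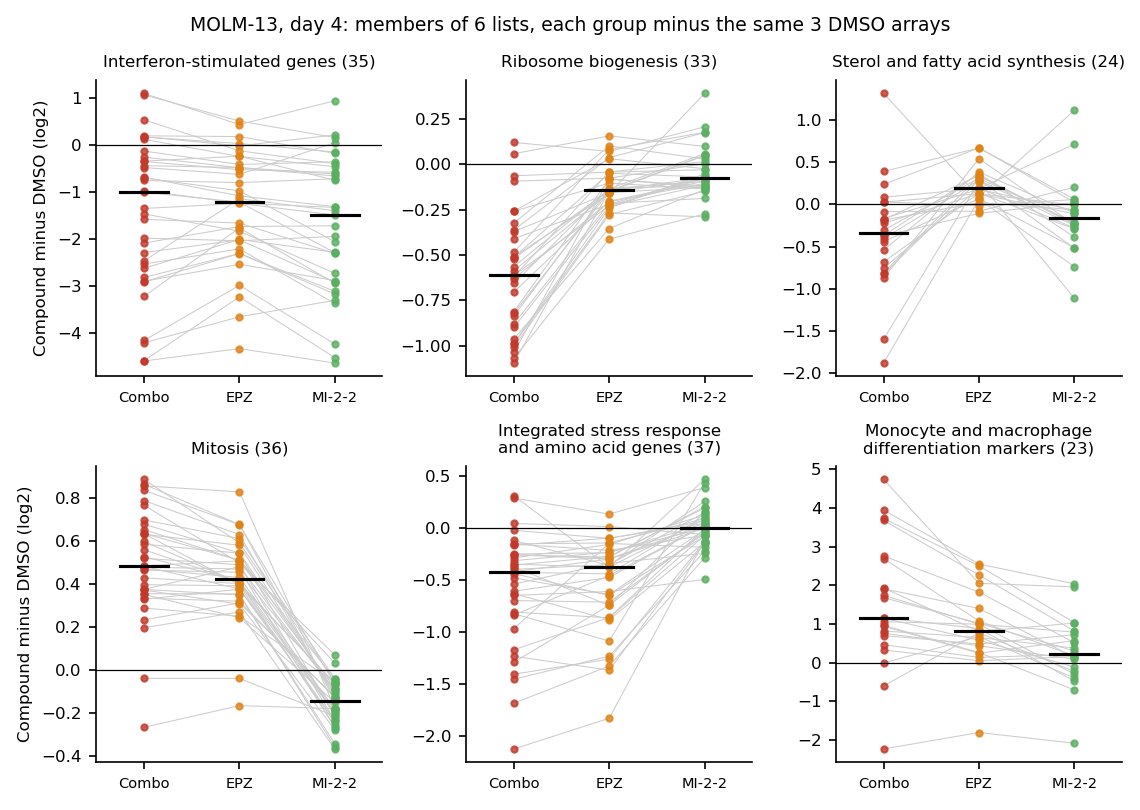
For 6 gene lists, points are the log2 changes of the measured members against DMSO in MOLM-13 for the combination (Combo), EPZ004777 (EPZ) and MI-2-2, which share the 3 DMSO arrays; grey lines join the values of a gene, bars are medians, and the scale differs between panels. The medians of the interferon-stimulated genes lie at -1.01, -1.22 and -1.49, and those of ribosome biogenesis at -0.61, -0.14 and -0.07.

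The interaction term asks whether the combination differed from the sum of the changes with each compound on the log2 scale. It was above the sum for 580 genes (4.08%) and below it for 1236 (8.7%), and this total of 1816 was 1186 without EPZ004777 replicate 2. MEIS1 fell by more than the sum, which is made of -1.19 for EPZ004777 and -1.50 for MI-2-2, with an interaction of -1.59 (adjusted p = 8.53e-06), and PBX3 likewise (-0.24, -0.61 and -1.24). Of 19 fusion targets 3 lay below the sum and none above. CD14 (+0.73, adjusted p = 0.00377) and FPR1† (+1.91) rose by more than the sum. In DMSO, however, CD14 was at the dim floor and FPR1† read only 5.79 to 6.23. The part of the background in these 2 interactions was not tested.

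For ribosome biogenesis 24 of 33 members lay below the sum. NOP2 changed by -1.01 with the combination, -0.28 with EPZ004777 and -0.15 with MI-2-2, and MYC† by -0.95, -0.03 and +0.05, with an interaction of -0.97 (adjusted p = 0.000245). For SQLE the changes were -1.88 with the combination, +0.06 with EPZ004777 and -0.74 with MI-2-2 (interaction -1.20), and 9 of 24 sterol and fatty acid genes lay below the sum. The interferon-stimulated genes showed the opposite, since 28 of 35 lay above the sum and none below. Each compound alone lowered 28 of them, and for genes such as IFI44L (-4.60 with the combination, -4.33 with EPZ004777 and -4.64 with MI-2-2) every treated group ended at the dim floor. Not all did: MX1 was higher with the combination than with MI-2-2 alone (+1.26), and its interaction was +3.10. Its difference to EPZ004777 alone was not called (+0.37, adjusted p = 0.364).

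The largest departures above the sum were IFI44L (+4.38), IFIT1 (+3.17), MX1 (+3.10), IFI44† (+3.06) and IFIT5† (+3.05). Those below were SPP1† (-5.18), the gene of osteopontin, GJA1 (-3.34), a gap junction protein gene with DMSO values of 4.89, 7.71 and 5.99, GPNMB (-2.87), a macrophage glycoprotein gene, ALDOC (-2.53) and CAMSAP2 (-2.20). SPP1† read 6.41, 6.45 and 6.58 with the combination and 5.69, 5.16 and 4.57 with DMSO, and averaged 7.93 with EPZ004777 and 8.86 with MI-2-2. It was therefore higher with each compound alone than with both. GPNMB averaged 6.91 with the combination, 8.69 with EPZ004777, 8.93 with MI-2-2 and 7.84 with DMSO, and ALDOC 7.78, 10.29, 10.65 and 10.63.

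In the mouse MLL-AF9 cells, 9864 genes could be joined by symbol, of which 2854 rose (28.9%) and 3696 fell (37.5%) with the combination. Mouse combination arrays 2 and 3 stood apart. They correlated with array 1 at 0.957 and 0.952 and with each other at 0.993, and their GAPDH 3′ minus 5′ values were 1.504 and 2.047, against 0.597 for array 1 and 0.488 to 0.654 for the mouse DMSO arrays. Results are therefore given also without both, which leaves 1 combination array with the spread taken from the other groups. Of 2538 joined genes that rose in MOLM-13, 1175 (46.3%) rose and 568 (22.4%) fell in the mouse cells. Of 2712 that fell in MOLM-13, 1573 (58%) fell and 438 (16.2%) rose. Without mouse arrays 2 and 3 these shares were 48.3%, 20%, 56.6% and 16.6%, beside 28.4% up and 35.5% down over all joined genes. As shares of the mouse genes, the shared rises were 41.2% and the shared falls 42.6%.

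Fusion targets, monocyte markers and ribosome genes mostly moved the same way in both species. Of 17 joined fusion targets 12 fell and 2 rose in the mouse cells (14 and 2 without arrays 2 and 3). Mouse Meis1 read 6.82, 6.74 and 7.01 with the combination and 10.02, 9.84 and 9.94 with DMSO (-3.08 ± 0.09, adjusted p = 1.31e-09). All 3 combination arrays were far below the DMSO arrays, those that stand apart included. Monocyte markers rose in 16 of 19 and fell in none, and ribosome biogenesis fell in 30 of 32 and rose in none (15 and 31 without arrays 2 and 3). The 5 largest rises shared by both were CLEC5A (+1.68 in the mouse cells), ANKRD22 (+6.36), GPAT3 (+3.59), ABCA1 (+3.85) and CD14 (+2.31), and the 5 largest falls MEIS1, PTGIS (-0.40), IL12RB2 (-1.89), SOCS2 (-0.55) and the myosin gene MYO6 (-2.54, -3.27 in MOLM-13). Without arrays 2 and 3 the mouse falls of MYO6 (-1.33, adjusted p = 0.0873), PTGIS (-0.25, adjusted p = 0.323) and SOCS2 (-0.65, adjusted p = 0.0525) were not called, while the 5 rises were.

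Other groups did not share their direction or, like the liver X receptor targets, shared it only in part. Interferon-stimulated genes rose in 17 of 24 and fell in 1 in the mouse cells, with a median change of 1.16 (18, 1 and 1.26 without arrays 2 and 3), against -1.16 for the same 24 genes in MOLM-13. Mouse Ifit1 read 7.96, 7.10 and 6.97 with the combination and 4.45, 5.56 and 5.76 with DMSO (+2.09 ± 0.37), and Il7r 7.89, 7.62 and 6.79 against 2.88, 4.61 and 4.25 (+3.52 ± 0.41), while both human genes fell. Mouse Abcg1, the gene of the largest human rise, read 11.62, 9.09 and 9.07 with the combination and 9.96, 9.88 and 9.84 with DMSO, so the groups overlapped and it was not called (+0.03, adjusted p = 0.962), but on array 1 alone it was called as higher (+1.73, adjusted p = 1.55e-05). Liver X receptor targets rose in 4 of 11 and fell in 3 in the mouse cells, with a median of 0.03 (5, 1 and 0.41 without arrays 2 and 3). Sterol and fatty acid genes rose in 12 of 23 and fell in 1 (18 and 1 without arrays 2 and 3). DNA replication genes rose in none of 34 and fell in 23 (27 without arrays 2 and 3), with a median of -0.53. Whether a change differed between the species was not tested, because the arrays and normalization differ.

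**Figure D5:**
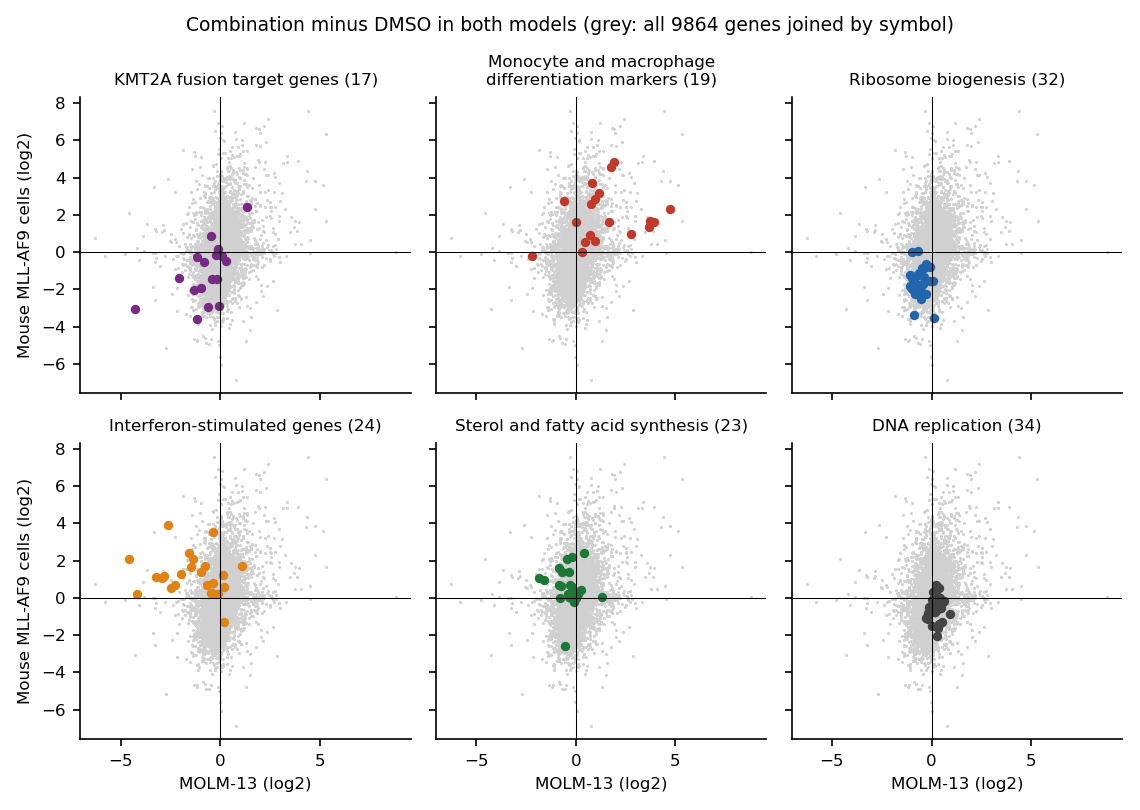
Combination minus DMSO log2 change of each joined gene in MOLM-13 (x axis) and in mouse MLL-AF9 cells (y axis, all 3 combination arrays), with all 9864 genes in grey and the members of 1 list coloured in each panel. Most fusion targets and ribosome genes lie at the lower left, and most interferon-stimulated genes at the upper left, with medians of -1.16 (MOLM-13) and 1.16 (mouse cells).

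Another probe set was at hand for 3891 of the called genes, and it was called in the same direction for 2550 (65.5%) and in the opposite direction for 87 (2.24%). Among 503 such genes changed at least 2-fold, 435 (86.5%) were called the same way by the other probe set and 1 the opposite way.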

How the data were processed

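Total RNA was amplified by the Nugen Ovation method and hybridized to Affymetrix arrays, per the labels' protocols. The authors deposited 1 log2 value for each probe set and array, and the submitters' processing notes name RMA, the affy package and R 3.0.2. These values were used as given, and columns were mapped to samples by title.

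Of 54675 human probe sets, 41097 had 1 symbol in the platform annotation (41043 updated through Entrez identifiers), 1801 had several and 11777 none, and only those with 1 symbol were used, without the 62 control probe sets. Each gene was read on its brightest probe set over the fitted arrays, kept if above percentile 40 on at least 2 arrays. Probe sets ending in _s_at, _x_at or _a_at carry the mark †.

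A limma model (version 3.58.1, R 4.3.3, functions lmFit and eBayes) of the 12 MOLM-13 arrays had 1 coefficient per group, and genes with a Benjamini-Hochberg adjusted p under 0.05 over all 14209 were called. The mouse arrays were fitted apart and joined by symbol. The fit was tested on simulated data. Named were the 20 largest rises and falls among called genes whose groups did not overlap, members of the gene lists, the 5 largest rises and falls of each other contrast, and the 5 largest in each direction shared with the mouse cells. The comparison, lists and this rule were chosen with earlier results of these data known, so the list counts are descriptions. Array number limits the precision, and arrays give no read depth. Promoter sequences came from RefSeq (GRCh38.p14). Replicate numbers were not taken to pair the samples. Same-numbered combination and DMSO arrays correlated at -0.03 to 0.06 in their deviations from the group means. With 3 arrays per group, such values cannot exclude a pairing. Alternatives were no filter, repeated quantile normalization, the mean of all probe sets, the replicate block, array weights, actin or GAPDH 3′ minus 5′ values as covariates, a fit of all 44 human arrays, a stricter threshold, other dim floors and leaving out each array. Leaving out mouse combination arrays 2 and 3 was added after seeing the data.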

Additional observations from a re-analysis of the deposited data

Results flagged for a closer look

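Some results were marked because every MOLM-13 combination array lay on one side of its DMSO arrays while every mouse MLL-AF9 combination array lay on the opposite side of the mouse DMSO arrays. None of these differences between the cell models was tested, and mouse combination arrays 2 and 3 stand apart as described above. Among the largest changes of MOLM-13, 4 genes met this condition. The interferon-responsive EPSTI1 changed by -3.87 in MOLM-13 but 0.85 in the mouse cells, and the RNA-binding gene IFIT1 by -4.59 and 2.09. The interleukin-7 receptor gene IL7R changed by -3.34 and 3.52, and the growth factor gene PDGFA† by -3.67 and 1.501.

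For gene lists the mean change of the joined members was used, given for MOLM-13 and then for the mouse cells. It was -1.42 and 1.23 for interferon-stimulated genes, 0.27 and -0.65 for MHC class I presentation, and -0.38 and 0.61 for sterol and fatty acid synthesis. DNA replication genes had means of 0.20 and -0.56, chaperones of the endoplasmic reticulum 0.15 and -0.56, and the DOT1L and super elongation complexes 0.08 and -0.23. ERK, EGR and STAT5 feedback genes had -0.48 and 0.79, retinoid genes -0.52 and 0.27, and oncofetal genes 0.11 and -0.81. Erythroid markers had 0.20 and -0.64, and housekeeping genes, meant as a control, 0.08 and -0.38. The shift of the housekeeping genes is of the size of the smaller differences in this set. Groups of 3 arrays are too small for the check on single outlying arrays, so none was made.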

How the results depend on the processing

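The number of genes called between the combination and DMSO, 6947, stayed within 1.5 times under all settings that keep the threshold, from 6120 with the actin covariate to 7310 with array weights, and lay between 6204 and 6497 with 1 array left out. Asking also for a 2-fold change left 1028. The sign of a list's median was kept in 38 to 42 of 42 lists. At an adjusted p under 0.01 the calls fell to 2968 against EPZ004777, 2289 for EPZ004777 against DMSO, 1343 for MI-2-2 against DMSO and 773 for the interaction. The interaction rose to 3363 with array weights, which gave the MI-2-2 arrays 0.479, 3.8 and 0.356, and spanned 1186 to 2196 with 1 array left out. The causes were not tested. Genes that crossed the dim floor numbered 30 and 26 with percentile 30, and 128 and 124 with percentile 50. With the replicate number as a block the calls were 6817 against DMSO, 4461 against EPZ004777, 5422 against MI-2-2, 1604 for the interaction and 8530 in the mouse cells. For MOLM-13 the same-numbered correlations passed 0.1 in 3 of 18 pairs, so the numbers are not taken to pair the arrays. Array weights were not run for the mouse cells, where they do not converge. Of 298 genes named, 272 of them called, 176 kept direction and call under all 17 settings, the stricter threshold and the 2-fold requirement included. Reversed were LPCAT3 (-0.14 with the mean of all probe sets and -0.97 when all 44 human arrays were fitted together) and GJA1 (0.74 without DMSO replicate 2, against -0.68 without DMSO replicate 1). Dim probe sets limit the sizes of changes that end below percentile 40.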

Other observations

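Secreted signals and their receptors changed in both directions with the combination in MOLM-13. Of 23 measured chemokines, cytokines and receptors 14 rose and 6 fell. The inflammatory cytokine gene IL1B (+2.53 ± 0.15), the neutrophil attractant gene CXCL8† (+2.39), the chemokine gene CXCL16 (+2.56), the anti-inflammatory cytokine gene IL10 (+1.77) and the chemokine receptor genes CX3CR1 (+2.21), CCR2 (+1.57) and CXCR2 (+1.34) rose. IL2RA, the interleukin-2 receptor alpha chain, read 5.27, 5.28 and 5.29 with the combination, all dim, and 7.77, 7.94 and 7.45 with DMSO (-2.44 ± 0.10). CCL2† (-0.76) and CCL5 (-0.74) fell too. Among 15 integrin and selectin pathway genes 8 rose and 3 fell, with ITGB7 (+1.83) and the common beta chain ITGB2† (+1.04) higher, and the laminin receptor chain ITGA6 (-1.52) and the adhesion ligand ICAM2† (-1.42) lower.

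Retinoid genes had 4 up and 5 down of 14, and 3 down in the fit of all 44 human arrays. Beside ALDH1A3, DHRS3 (-1.37), which reduces retinal, fell, while the receptor gene RARA† (+1.03) and DHRS9† (+1.24), which oxidizes retinol, rose. In TGF-beta and BMP signalling 8 of 17 rose and 2 fell, led by the receptor gene TGFBR2 (+1.28) and the signal transducer gene SMAD1 (+1.24), with the inhibitor gene SMAD7 (+0.71) higher and SKIL (-0.71) lower. Iron and haem genes had 4 up and 5 down of 16, near the shares of all genes, and 3 down without DMSO array 2. SLC40A1, the iron exporter ferroportin, read 5.99, 6.27 and 6.23 with the combination and 3.77, 3.32 and 4.51 with DMSO, all dim (+2.30 ± 0.41). The size of this rise thus depends on the background. FECH (-0.91), the last enzyme of haem synthesis, and STEAP3† (-0.95), an iron reductase, fell. Of 10 housekeeping genes 2 rose and 1 fell, with a median change of -0.02.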
